A study of Homo sapiens with 4 samples.

Results

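The metallothionein genes MT1A, MT1B, MT1E, MT1F, MT1G, MT1H, MT1M, MT1X and MT2A were followed in SUM149 cells, a cell line derived from a triple negative inflammatory breast cancer (IBC), before and during treatment with Ricolinostat (ACY1215). The members are all probes whose gene symbol in the annotated table is in this family list, which gave 12 probes of 58201 and 9 genes of 34755. The list was selected on earlier results of the same 4 arrays that included these genes' changes from the untreated array, so their changes are given as a description and no test was made on them. RNA was taken from untreated cells and from cells after 3, 6 and 12 h with 2.5 uM Ricolinostat, all of the same line with no engineered allele in the labels. Each time point was hybridised on 1 two-colour Agilent array, so there was no replicate, and how precise any value is depends on these few arrays. No vehicle-treated array at 3, 6 or 12 h was analysed here, and treatment and time in culture cannot be told apart. In an extract of a whole culture, fewer cells carrying a transcript and less of it per cell also cannot be told apart.

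Metallothioneins are small cysteine-rich proteins that bind zinc and copper and take up cadmium, and they buffer free metal in the cytosol. Their genes lie in a tight cluster on chromosome 16 and are switched on by zinc through MTF1, a zinc-sensing transcription factor that binds metal response elements, short motifs repeated upstream of the genes. MT2A and several MT1 genes are expressed in most tissues, MT3 is known mainly from brain and MT4 from stratified epithelia. Ricolinostat is a hydroxamate, which inhibits HDAC6 by binding the zinc ion of its catalytic site. The coding sequences of the MT1 genes are so alike that a probe for one can also bind transcripts of another. Probe sequences were not used here, and this cross-hybridisation was not tested.

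The upstream sequences are shown because they carry the metal response elements through which zinc is known to act on this family. Of the 9 members, 4 were matched by symbol to a RefSeq promoter (GRCh38.p14), and the 250 bases before each start are printed 5′ to 3′ on the plus strand. Capitals mark the core motif of the metal response element, searched as TGCACNC or TGCGCNC on both strands, where N is any base. No capital base belongs to more than 1 match in these windows.
MT1X: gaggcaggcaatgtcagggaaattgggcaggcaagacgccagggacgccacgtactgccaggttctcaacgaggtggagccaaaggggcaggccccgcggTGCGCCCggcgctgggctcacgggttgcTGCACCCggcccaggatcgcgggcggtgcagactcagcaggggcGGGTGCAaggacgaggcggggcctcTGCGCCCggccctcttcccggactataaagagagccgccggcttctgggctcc
MT2A: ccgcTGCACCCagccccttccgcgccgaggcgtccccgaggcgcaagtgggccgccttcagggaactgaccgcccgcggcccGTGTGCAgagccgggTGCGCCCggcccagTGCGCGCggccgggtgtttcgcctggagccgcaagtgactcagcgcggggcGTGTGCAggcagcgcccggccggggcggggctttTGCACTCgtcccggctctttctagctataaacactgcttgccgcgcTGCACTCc
MT1H: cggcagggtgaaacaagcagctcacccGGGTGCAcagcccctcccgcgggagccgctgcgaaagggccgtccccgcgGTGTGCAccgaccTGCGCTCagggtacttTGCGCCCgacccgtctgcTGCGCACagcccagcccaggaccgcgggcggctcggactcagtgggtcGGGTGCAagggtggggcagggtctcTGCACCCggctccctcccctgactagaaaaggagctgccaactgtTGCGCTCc
MT1B: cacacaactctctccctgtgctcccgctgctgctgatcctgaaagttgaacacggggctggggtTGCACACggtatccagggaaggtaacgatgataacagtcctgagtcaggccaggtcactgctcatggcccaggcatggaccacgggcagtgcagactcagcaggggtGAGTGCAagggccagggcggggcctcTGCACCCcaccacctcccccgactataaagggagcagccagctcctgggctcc
These windows are chr16:56682220-56682469 for MT1X, chr16:56608334-56608583 for MT2A, chr16:56669564-56669813 for MT1H and chr16:56651636-56651885 for MT1B. The MT1X window held 4 matches, 3 of them on the plus strand, with first bases between 150 and 53 bases before the start. Among 35116 promoter windows of the same length, 0.37% held at least 4 and 24.8% held at least 1. The MT2A window held 7 matches, a number reached by 0.0313% of windows, and its nearest match began 8 bases before the start. The MT1H window held 8 matches, reached by 0.0171%, and the MT1B window 3, reached by 1.58%. MT1B, MT1H and MT1X each held a plus-strand match that began 53 bases before the start. A match is a description of letters, and binding was not measured.

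On each array 60901 spots were used, Cy5 held the sample and Cy3 a common reference that the labels describe as pooled RNA from all the SUM149 cultures. Most spots were dim. Cy5 medians ran from 34 to 37 units, beside 24 for the surrounding background, and saturation was not reached anywhere. Values below are either scanner signals, each a spot's median pixel, or log2 changes, the difference in normalized log2(Cy5/Cy3) between a treated and the untreated array. Damaged areas covered 3.31% of spots on the untreated array and 4.69% on the 3 h array, and no member probe lay in them. All 8 epithelial markers checked, among them EPCAM and keratin genes, were well above background on all 4 arrays, PGR was not on any, and ESR1 had Cy5 signals of 172 to 262. The flag is permissive, since leukocyte, endothelial, fibroblast and hepatocyte markers also carried it at Cy5 signals of 32 to 476. The hepatocyte gene ALB had a Cy3 signal of 21137 to 22178 against 154 to 231.5 in Cy5, so the reference did not resemble the samples at that gene, and the values here rest on its being the same on every array. Between repeated spots, the SD of a log2 change was 0.17 at 3 h over 161 probes, 0.12 at 6 h over 204 probes and 0.12 at 12 h over 214 probes. This technical SD holds no variation between cultures. HDAC6, the enzyme the compound inhibits, had log2 changes of -0.41, -0.25 and -0.51 at 3, 6 and 12 h on its brighter probe and -0.25, -0.0049 and -0.20 on its other probe.

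MT1X stood apart from the rest of the family after Ricolinostat. It was 1.5-fold higher than in untreated cells at 3 h, 1.95-fold at 6 h and 3.08-fold at 12 h, and it was the 1 member past 2-fold on the probe that represents the gene. At 12 h, 7 of the other 8 members were also above their untreated value, by at most 0.57 on the log2 scale, and MT1M was not. Of these 7, MT1G and MT1H were each at 0.033, near background and within 1 technical SD (0.12) of no change. A value above untreated by any amount was also common outside the family, since the typical measured gene stood at 0.014. At 12 h 8.36% of measured genes had a larger log2 change than MT2A, 18.5% than MT1E and 64.4% than MT1M. Before 12 h the other members measured lay between -0.30 and 0.024. The smaller 12 h differences depended on the normalization, while MT1X stayed past 2-fold under every processing tried.

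MT1X, the member nearest the end of the cluster that borders NUP93, was read by 1 probe (A_33_P3236868). Its Cy5 signal was 2446 in untreated cells, 3588 at 3 h, 3862 at 6 h and 5707 at 12 h. The untreated array was thus the lowest and the 12 h array the highest, in the order of exposure. Its Cy3 reference signal was 800, 700, 731 and 766 on the same arrays, a narrow range with the untreated array highest. The log2 change of the ratio was 0.58 at 3 h, 0.97 at 6 h and 1.62 at 12 h, each larger than the technical SD. The step from 3 h to 6 h was 0.39 and the step from 6 h to 12 h was 0.66. Both were larger than the technical SD of a change from the untreated array, and no SD was taken for the steps themselves. In the normalized Cy5 channel alone the changes were 0.40, 0.82 and 1.48, and in Cy3 they were -0.18, -0.15 and -0.14, so part of each ratio's change lay in the reference channel. Without any normalization the background-subtracted Cy5 signal of MT1X changed by 0.56, 0.66 and 1.23 on the log2 scale. At 3 h 1454 genes, 7.0% of those measured, had a larger log2 change than MT1X. At 6 h this was 637 genes (3.13%), and at 12 h 60 genes (0.293%).

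**Figure D1:**
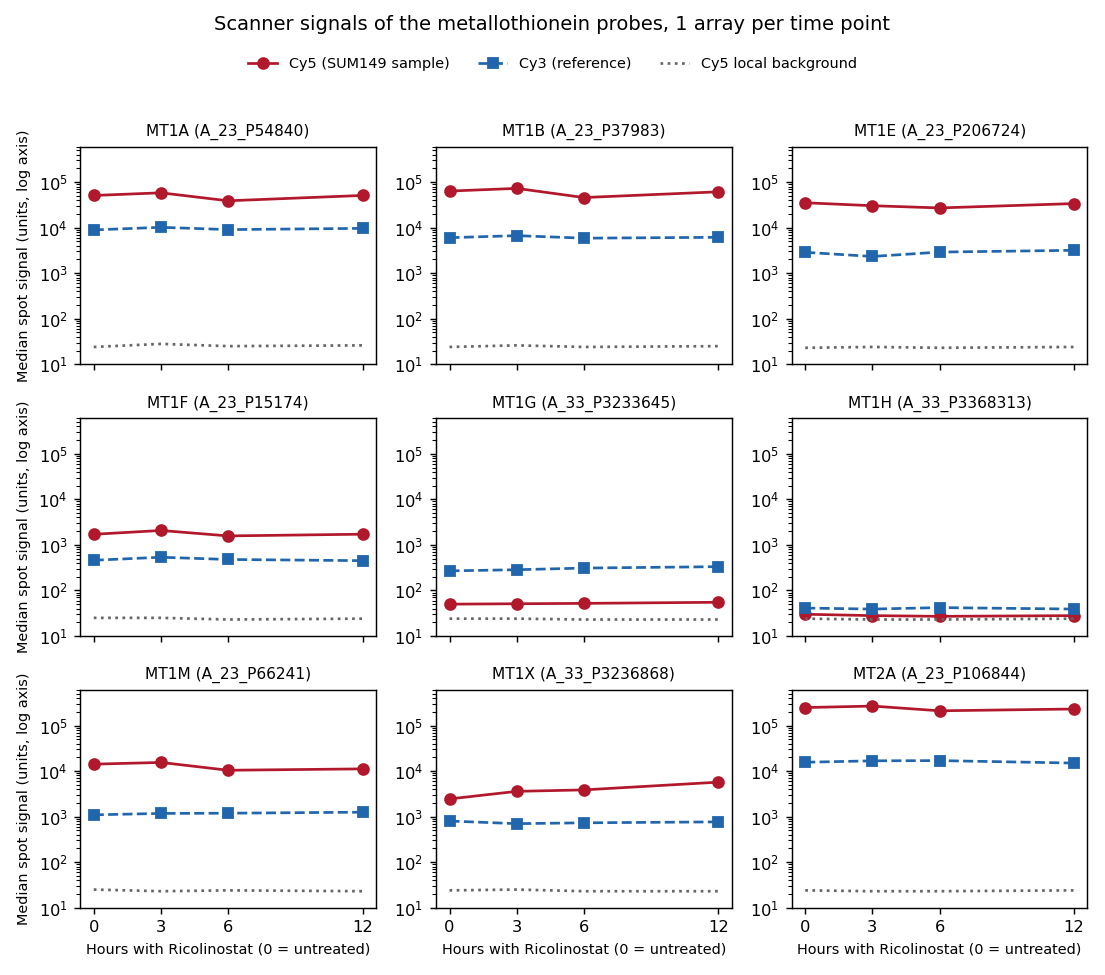
Median spot signal in scanner units (log axis) against hours with Ricolinostat, 0 being untreated cells, for the probe representing each of the 9 genes; red circles are Cy5 (sample), blue squares Cy3 (reference) and the dotted line the local Cy5 background, with 1 array per time point and no error bars. The MT1X Cy5 signal goes from 2446 to 5707 while its Cy3 signal stays between 700 and 800, and MT1H lies close to its background.

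MT2A, the isoform usually most abundant in human cells, had Cy5 signals of 248299 in untreated cells, 267676 at 3 h, 210699 at 6 h and 230839 at 12 h. The 3 h array was highest and the 6 h array lowest. Its Cy3 signals were 15629, 16792, 16976 and 14992.5. The log2 changes were -0.034, 0.0003 and 0.57, so the 3 h and 6 h values lay within 1 technical SD and the 12 h value did not. Before normalization the 12 h Cy5 signal lay below the untreated one. None of the 4 spots was saturated.

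MT1A, an isoform inducible by heavy metals, had Cy5 signals of 50907.5 in untreated cells, 58248 at 3 h, 38903 at 6 h and 50973 at 12 h. The untreated and 12 h arrays were nearly level and the 6 h array was lowest. Its log2 changes were -0.067, -0.088 and 0.44, of which the 12 h value lay outside 1 technical SD. MT1B was read by a pair of probes, which lay close together at 3 h and 12 h and on opposite sides of the untreated value at 6 h. Whether that 6 h gap exceeds the spread between single spots was not tested. On the brighter (A_23_P37983) the Cy5 signals were 63599, 72852, 45843 and 61252 and the log2 changes -0.029, -0.12 and 0.47. On the other (A_22_P00010235) the Cy5 signals were 44605, 49344.5, 34722 and 43230 and the log2 changes -0.029, 0.035 and 0.50. Both probes were dimmest in Cy5 at 6 h.

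MT1E, an isoform expressed in many epithelial tissues, had 3 probes that disagreed. The probe representing the gene (A_23_P206724) had Cy5 signals of 35218, 30324, 27103 and 33808 at 0, 3, 6 and 12 h and log2 changes of 0.014, -0.099 and 0.31. Its Cy3 signals were 2874, 2330, 2909 and 3181, lowest on the 3 h array, and its 3 h change in Cy5 alone was -0.32. A further probe (A_21_P0000671) had Cy5 signals of 27736, 28490, 18864 and 19087 and log2 changes of -0.28, -0.14 and -0.054. At 12 h these probes therefore lay on opposite sides of the untreated value, further apart than the technical SD. The remaining probe (A_23_P420942), annotated to a predicted transcript variant, was dim, with Cy5 signals of 17, 93, 77.5 and 58.5 over local backgrounds of 17, 25, 23 and 23. It was not well above background in either channel of the untreated array, so its values there are only a bound. It was at least 2.13-fold higher at 3 h, at least 1.98-fold at 6 h and at least 1.69-fold at 12 h, where the treated array's signal was set against the higher of the untreated probe's own signal and the lowest signal of probes well above background. Its local Cy5 background was itself lowest on the untreated array, and the part of this in the bounds was not tested.

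MT1F had Cy5 signals of 1710, 2075, 1576 and 1719 at 0, 3, 6 and 12 h. The 3 h array was highest and the untreated and 12 h arrays were nearly level. Its Cy3 signals were 460, 536, 478.5 and 451, and its log2 changes were -0.10, 0.024 and 0.38. MT1M, another MT1 isoform, had Cy5 signals of 14175.5, 15479.5, 10424 and 11178. The untreated and 3 h arrays lay above the 6 h and 12 h arrays. Its log2 changes were -0.093, -0.30 and -0.075, the 6 h value lying outside 1 technical SD, and it was the lowest member at both 6 h and 12 h.

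MT1G and MT1H were close to the limit of measurement in these cells. MT1G had Cy5 signals of 50, 51, 52 and 55 at 0, 3, 6 and 12 h over backgrounds of 23 to 24, and Cy3 signals of 269, 285, 310 and 333. Both channels were thus lowest on the untreated array and highest at 12 h, and the log2 changes of their ratio were -0.17, -0.021 and 0.033. MT1H had Cy5 signals of 30, 28, 27 and 28 over backgrounds of 23 to 24, and its Cy5 signal was not well above background at 6 h. Its log2 changes were -0.084 at 3 h and 0.033 at 12 h, and at 6 h the untreated value was at least 1.03-fold higher. The MT1H signal lay so near its background that its small changes do not show that its level was unaltered.

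**Figure D2:**
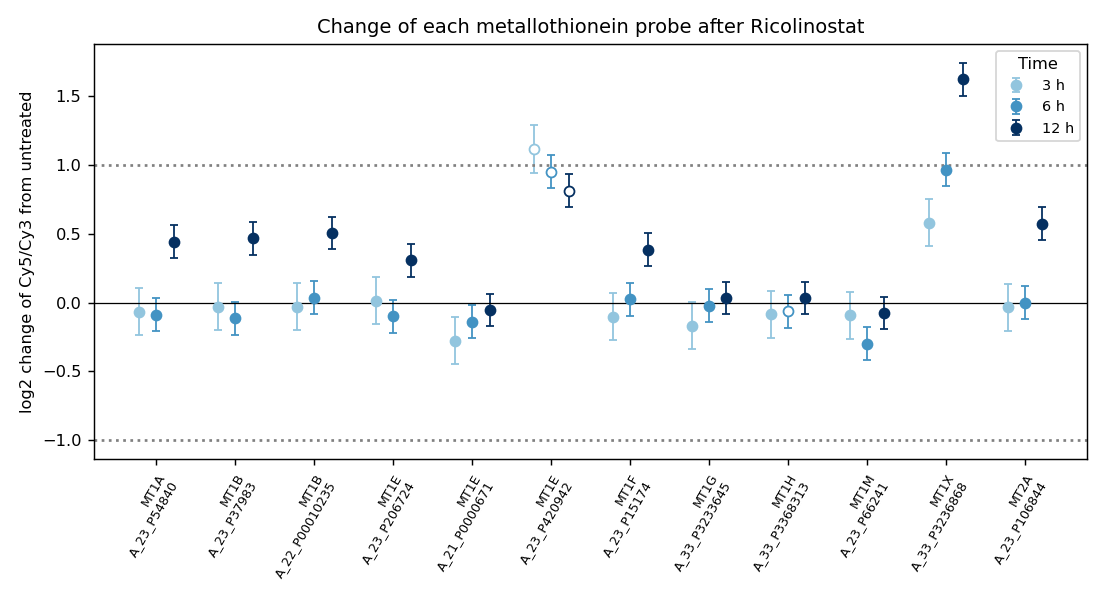
Log2 change of the Cy5/Cy3 ratio from the untreated array for each of the 12 metallothionein probes at 3, 6 and 12 h, with error bars of 1 technical SD (0.17, 0.12 and 0.12) taken from repeated spots and dotted lines at 2-fold. Open symbols lacked the detection flag in at least 1 channel of the pair of arrays; MT1X reaches 1.62 at 12 h and is the 1 measured probe above the upper line.

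Over the family, 0 of 9 measured members were at least 2-fold higher at 3 h, where 1.71% of all 20773 genes measured were. At 6 h this was 0 of 8 members, MT1H not being measured, against 2.81% of 20343 genes. At 12 h it was 1 of 9 members, MT1X, against 2.34% of 20484 genes. No member was at least 2-fold lower at any time, against 0.375%, 0.944% and 1.12% of all genes at 3, 6 and 12 h. The median log2 change of the members was -0.067 at 3 h, -0.055 at 6 h and 0.38 at 12 h, beside medians over all genes of 0.0075, 0.016 and 0.014. Within 1 technical SD of no change lay 8 of 9 members at 3 h, 6 of 8 at 6 h and 3 of 9 at 12 h. The 3 at 12 h were MT1G, MT1H and MT1M. The share of all genes within that range is not given here, so these counts describe the members only. MT1X exceeded the median of the other members by 0.66 at 3 h, 1.05 at 6 h and 1.28 at 12 h on the log2 scale. Across the ways of processing the data tried, the difference at 12 h ran from 1.03 to 1.51.

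**Figure D3:**
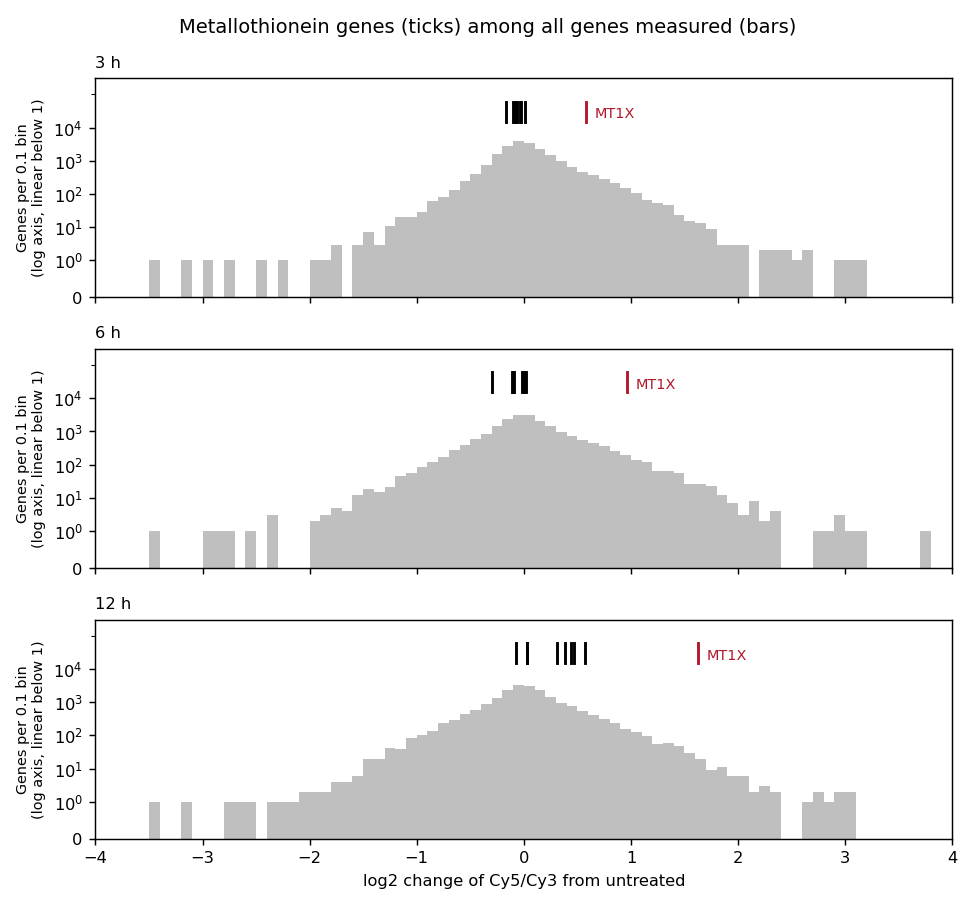
Number of genes per 0.1-wide bin of log2 change from the untreated array (grey bars, log axis that is linear below 1) at 3, 6 and 12 h, for genes measured on the pair of arrays, with the measured metallothionein genes as ticks. The MT1X tick (red) moves to the right with time, to 1.62, and at 12 h most other members sit between 0.31 and 0.57.

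The unnormalized signals gave a different picture of the other members at 12 h. In background-subtracted Cy5 signal, the log2 difference from untreated cells at 12 h was 0.0018 for MT1A, -0.054 for MT1B, -0.059 for MT1E, 0.0085 for MT1F and -0.11 for MT2A. MT1M was at -0.34 and the dim MT1H at -0.58, while MT1G, also dim, was at 0.30 and MT1X at 1.23. Over all genes the median of this raw difference was 0.12 at 3 h, -0.22 at 6 h and -0.32 at 12 h, and in the brightest 10% of genes it was 0.11, -0.26 and -0.39. The median of the 8 other members at 12 h was -0.057, above both. Median centring of each array was also tried in place of loess. The 12 h changes were then -0.043 for MT1A, -0.016 for MT1B, 0.094 for MT1F, 0.011 for MT1H and 0.021 for MT2A. They were -0.14 for MT1E, -0.13 for MT1G and -0.46 for MT1M, where the median of all genes stood at -0.16. MT1X was then at 1.33, its lowest value among the normalized settings, and its highest among them was 1.70 in the authors' table. In that table MT2A was at 0.19 at 12 h, against 0.57 here.

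**Figure D4:**
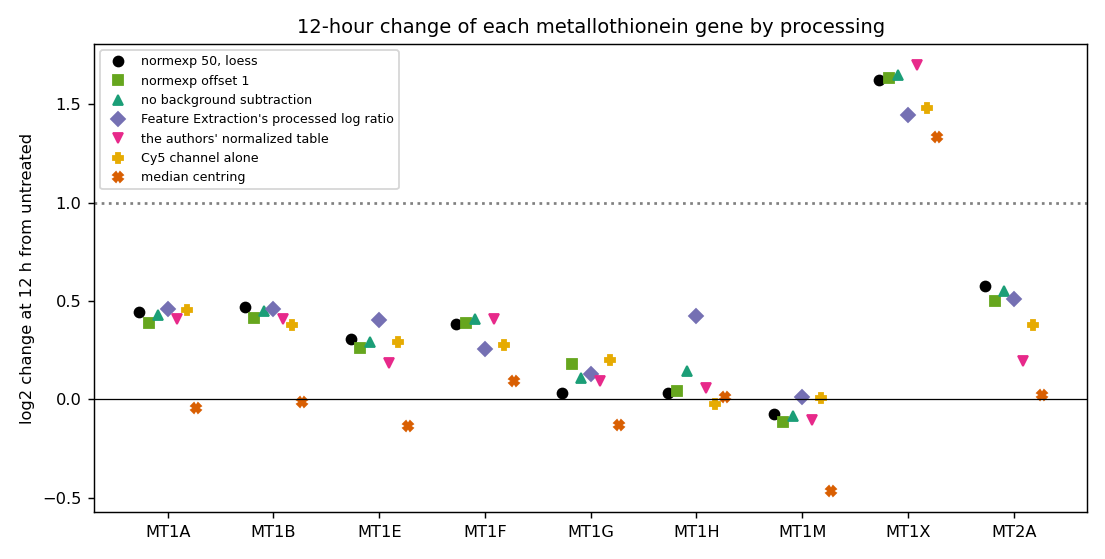
Log2 change at 12 h of each of the 9 metallothionein genes under 7 ways of processing the same arrays, 1 symbol per way, with a dotted line at 2-fold. MT1X lies above the line under each, between 1.33 and 1.70, while the values of MT1A, MT1B, MT1E and MT2A under median centring (orange crosses) lie near or below 0.

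Of the other family genes on the array, MT1L and MT1HL1 had 12 h changes like those of MT1A and MT1B, and MT3 and MT1IP did not. The pseudogene MT1L had Cy5 signals of 64830.5, 66534, 49577 and 61563 at 0, 3, 6 and 12 h and log2 changes of 0.0003, 0.12 and 0.55. MT1HL1, a copy outside the cluster, had Cy5 signals of 29190, 27892, 21918 and 29614.5 and log2 changes of 0.11, 0.017 and 0.54. Signal from near-identical transcripts on these probes and those of the members was not told apart. MT3, the brain isoform, had Cy5 signals of 10823, 11652, 8088 and 9328.5 and log2 changes of -0.068, -0.012 and 0.16. The pseudogene MT1IP, next to MT1X in the cluster, was dim, with Cy5 signals of 57, 73, 60 and 55 and log2 changes of 0.21, 0.13 and 0.029. MT4 and MT1DP were not well above background on any array.

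In the RefSeq gene order on chromosome 16 the cluster runs from MT4 and MT3 through MT2A, MT1E, MT1M, MT1A, MT1B, MT1F, MT1G and MT1H to MT1X, with pseudogenes between. Of 8 flanking genes 6 were measured, with median log2 changes of 0.12, 0.25 and 0.39, and none passed 2-fold at 3 h or 6 h. NUP93, a nuclear pore subunit that adjoins MT1X and was named after its values were seen, had log2 changes of 0.050, 0.070 and 0.30. At 12 h 1 of the 6 passed 2-fold, HERPUD1, an endoplasmic reticulum stress gene beyond NUP93 and SLC12A3. Its Cy5 signal was 3202.5, 3175.5, 3280 and 6891 and its log2 change -0.28, 0.11 and 1.38. HERPUD1 was thus high on the 12 h array alone, whereas MT1X was above untreated on all 3 treated arrays.

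Genes that move zinc were set beside the metallothioneins, since these share its handling. Of 10 zinc exporters of the SLC30 family 8 were measured, with median log2 changes of 0.24, 0.47 and 0.37 at 3, 6 and 12 h. None was 2-fold higher at 3 h or 6 h and 1 was at 12 h, SLC30A3, an exporter that loads zinc into synaptic vesicles. Its Cy5 signals were 104, 166, 264.5 and 347, lowest in untreated cells and highest at 12 h, with log2 changes of 0.20, 0.93 and 1.25. SLC30A1, the plasma membrane exporter that MTF1 also activates, had Cy5 signals of 941, 774, 1175 and 978 and log2 changes of 0.64, 0.62 and 0.57. In Cy5 alone its changes were -0.33, 0.43 and 0.27, so its 3 h value turned sign without the reference channel. The 250 bases before the SLC30A1 start held 1 match of the motif. Of 14 importers of the SLC39 family 12 were measured, with medians of 0.0062, -0.018 and -0.010. SLC39A6, an oestrogen-regulated importer, was the 1 past 2-fold at 6 h and at 12 h, with Cy5 signals of 357, 636, 609 and 572.5 and log2 changes of 0.80, 1.23 and 1.29. In Cy5 alone its changes were 0.62, 0.84 and 0.87, below 2-fold at each time. No measured exporter or importer was 2-fold lower at any time. The importer SLC39A11 carried an outlier flag and was not measured, and its Cy5 signals were 275.5, 224, 156 and 112.

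Of 10 genes of the metal response 9 were measured, with medians of 0.42, 0.30 and 0.39. MTF1, the zinc sensor, had Cy5 signals before normalization of 342, 670, 507 and 338, highest at 3 h and nearly level between untreated and 12 h. Its log2 changes were 0.72, 0.89 and 0.50, largest at 6 h, and in normalized Cy5 alone they were 0.76, 0.60 and 0.13. In the 250 bases before its start there was no match of the motif. At each time 2 of the 9 passed 2-fold, HSPA1A and HSPA1B, nearly identical genes for the inducible chaperone HSP70 that heat shock factor controls. HSPA1A had log2 changes of 1.25, 1.81 and 1.19, largest at 6 h. HSPA1B, named after its values were seen, had 1.23, 1.81 and 1.17. GCLC and HMOX1, also named after their values were seen, lay below untreated at each time. GCLC, a subunit of the enzyme that limits glutathione synthesis, had -0.36, -0.42 and -0.54. HMOX1, the inducible haem oxygenase, had -0.65, -0.28 and -0.24 on a probe with spots in a damaged area. GCLM, the partner subunit of GCLC, was flagged and in a damaged area and was not measured, and its Cy5 signals were 1176.5, 12139, 10488 and 7129. MT1X had its highest log2 change at 12 h, whereas MTF1, HSPA1A and HSPA1B had theirs at 6 h. TXNRD1, also of this list and named after its values were seen, was highest at 12 h too, at -0.13, 0.30 and 0.39. The log2 changes of SLC30A3 and SLC39A6 had the same order as those of MT1X.

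Metallothioneins also bind copper, and all 10 copper handling genes were measured, with medians of 0.31, 0.31 and 0.38. Past 2-fold were 2 at 3 h, 3 at 6 h and 3 at 12 h. Of all genes measured, 1.71%, 2.81% and 2.34% were at least 2-fold higher at these times. ATP7A, a copper-exporting ATPase, had Cy5 signals of 97, 287, 335 and 233 and log2 changes of 0.98, 1.62 and 1.43. Its 4 other probes ranged from 0.11 to 1.23 at 12 h, so the probes disagreed. Also past 2-fold, and named after their values were seen, were the related ATPase ATP7B, at 0.61, 1.07 and 1.19, and SLC31A2, a low-affinity copper transporter, at 1.03, 1.38 and 1.34. ATOX1, a copper chaperone also named so, was in the 3 h count at 1.05, on a spot in a damaged area. It stood at -0.995 in Cy5 alone, so the 3 h count rests partly on that spot. Glucocorticoids also induce MT2A, so 9 genes of that response were taken, and their medians were 0.25, 0.16 and 0.024. Of these ERRFI1, a feedback inhibitor of EGFR, passed 2-fold at 6 h alone, with log2 changes of 0.88, 1.11 and 0.88. Across these lists no measured gene was 2-fold lower, and the shares of all genes 2-fold higher given above stand beside the counts of each list.

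**Figure D5:**
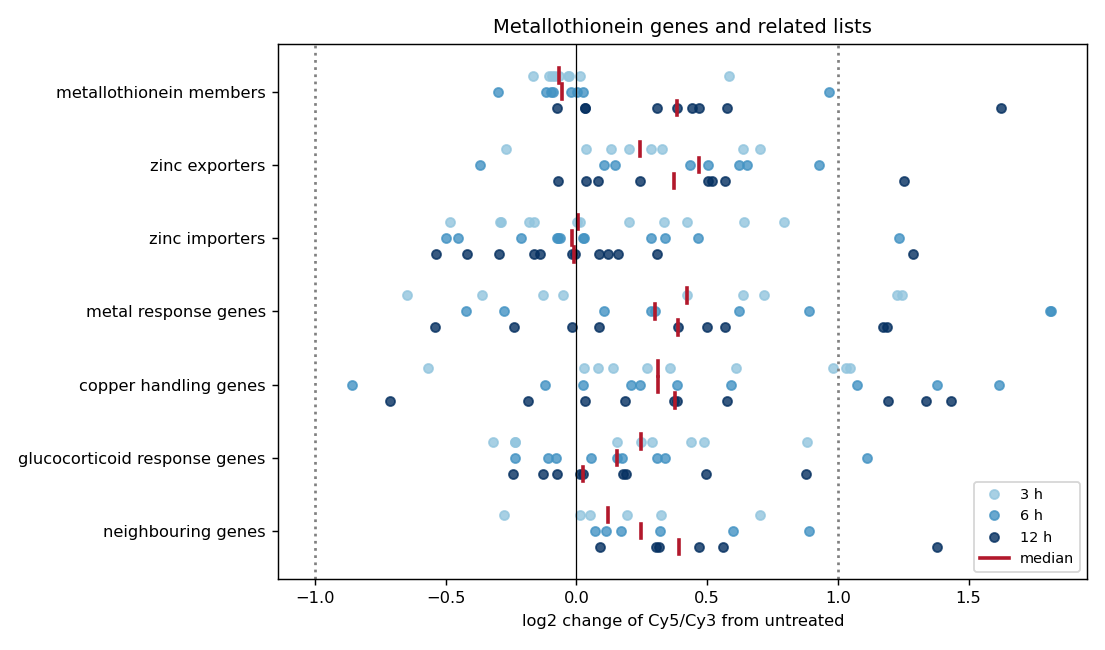
Log2 change from the untreated array at 3, 6 and 12 h for each measured gene of the metallothionein family and of 6 related lists, 1 point per gene, with red bars at the median and dotted lines at 2-fold. The metallothionein points lie close together with MT1X apart from them, and the medians of every other list but the zinc importers lie above 0 at each time.

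The genes whose 3 changes lay nearest to the members' median pattern were found among 19883 other genes well above background on all 4 arrays, by Euclidean distance. That median pattern, over the 8 members measured on all 4 arrays, was -0.051 at 3 h, -0.055 at 6 h and 0.41 at 12 h. The nearest were KRT6B at a distance of 0.029, LYRM9 at 0.034, FAM50A at 0.035, SP9 at 0.061 and PI3 at 0.062, the PI3 spot lying in a damaged area. Among the members, MT1A lay at 0.048 from that pattern, MT1B at 0.084, MT1F at 0.10, MT1E at 0.13 and MT2A at 0.17. MT1G at 0.40, MT1M at 0.55 and MT1X at 1.71 lay further away. Each member took part in that median, so the members' distances are not comparable with those of the other genes. The genes nearest to MT1X itself, a comparison added after its values were seen, were SDC4 at 0.096, OBSL1 at 0.13, AGR2 at 0.14, REEP6 at 0.15 and ANXA1 at 0.17. These distances rest on 3 values that share the untreated array.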

How the data were processed

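For each array the authors deposited the intensity of every spot and of its local background in both channels, detection and outlier flags, and a log10 ratio of Cy5 over Cy3, all from Agilent Feature Extraction. A further deposited table holds log2 ratios that the authors normalized, with gene symbols, and its method is not given in the sources used here. Here median spot signals were background-corrected by normexp (offset 50), control and outlier-flagged spots were left out, and arrays were normalized by loess and Aquantile (limma 3.58.1, R 4.3.3). Repeated spots were averaged by probe, and a gene with several probes was read from the brightest in Cy3. A gene was measured at a time point where the well-above-background flag was set for Cy5 and Cy3 there and in untreated cells. Summaries used Python 3.11.15 with pandas 2.3.3 and numpy 2.4.6. The normalization was tested on simulated data, with changes planted only in spots brighter than the median of those well above background. Dim probes such as that of MT1H were therefore not covered, and the offset shrinks the changes of dim spots by design. An area counted as damaged where 10% or more of the spots in a 13-row by 7-column window were defective in Cy3 or outlier-flagged. The precision is set by 4 arrays, and with 1 per time point no test was made.

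Members and lists were chosen with earlier results of these data known. Named genes are the members, HDAC6, SLC30A1, MTF1, the gene of each list with the largest 12 h change, and the 5 nearest to the members' median pattern, beside the fixed family and cell type marker lists, from which the genes printed were picked after their values were seen. Other names outside this rule are given as such in the text, except SLC39A11 and GCLM, which were flagged and not measured. Alternatives covered background correction, normalization, outlier flags, detection, damaged areas, the probes of a gene, Cy5 alone, the authors' table, and thresholds of 1.5-fold and 4-fold.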

Additional observations from a re-analysis of the deposited data

Results flagged for a closer look

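The Cy3 reference of the MT1E probe A_23_P206724 stood apart on the 3 h array. Its signal there was 2330, against 2874 on the untreated array, 2909 on the 6 h array and 3181 on the 12 h array. The gap to the nearest array was 0.889 of the range over the 4 arrays after normalization, above Dixon's limit for a group of 4. Chance passes this limit in about 1 of 20 such groups. The check was made on each member probe but A_23_P420942, and only this 1 passed, so a pass by chance among them is not excluded. The spot did not lie in a damaged area. The 3 h change of MT1E was 0.014 in the ratio and -0.32 in Cy5 alone.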

How the results depend on the processing

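MT1X was the member past 2-fold at 12 h under each way of processing tried at that threshold, and 0 members passed at 3 h and at 6 h. With a threshold of 1.5-fold 1 member passed at 6 h, MT1X, and with 4-fold 0 passed at 12 h. Median centring in place of loess, with Aquantile kept, moved the members' median log2 change to -0.34 at 6 h and -0.016 at 12 h. The median of all genes was then -0.084 and -0.16. The authors' normalized table gave a members' median of 0.19 at 12 h. Other alternatives moved no members' median by more than the technical SD. Of 286 values of single genes under an alternative, 251 moved by less than the technical SD and 35 by more, and 32 had another sign. The cause of the moves was not tested. Changing the detection filter or leaving out damaged areas could not change a member's value, nor could averaging probes where a gene had 1. Many of the 251 were thus fixed in advance, and this count does not measure how stable the values are. Signals near background limit MT1G, MT1H and the MT1E probe A_23_P420942. No paired analysis was possible because every time point was hybridised on a single array.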
